A study of Mus musculus with 14 samples.

Results

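This comparison sets tibia RNA of ovariectomized mice given hippuric acid (HA) beside that of ovariectomized mice given 3'(3'hydroxyphenyl) propionic acid (PPA). It was chosen by the treatment labels alone and holds 5 of the 14 libraries of the study, 3 for HA and 2 for PPA, named here HA1, HA2, HA3, PPA1 and PPA2 after the numbers in the sample titles. All 14 came from female wild-type C57Bl/6 mice, whose age the labels leave out. Mice of both groups had lost their ovaries and were treated for 8 weeks from 2 to 4 days after surgery. The remaining libraries are 3 of ovariectomized mice given PBS, the vehicle control (PBS1 to PBS3), 3 of sham-operated mice and 3 of ovariectomized mice given zoledronic acid, a bisphosphonate that blocks bone resorption. The sources used here give no doses, so whether the compounds were matched in dose is not known, and the pair is the only one compared. Nothing in the labels ties the libraries to separate animals, and p-values therefore measure the spread between these samples, which may be technical.

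Both compounds are small aromatic carboxylic acids that appear in blood after dietary polyphenols have been broken down by gut bacteria. Hippuric acid is benzoic acid joined to glycine by an amide bond, formed in liver and kidney through an acyl-CoA step. PPA instead carries a hydroxyl group on its ring and a propionic acid side chain, and a phenol of this kind can be coupled to sulfate or glucuronic acid. Loss of ovarian oestrogen speeds bone turnover: osteoclasts, which resorb bone, outpace osteoblasts, which build it, and marrow fat tends to increase.

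No gene passed the test between the compounds. Of 21761 genes tested with edgeR's quasi-likelihood test, 0 passed a Benjamini-Hochberg adjusted p of 0.05, and the smallest adjusted p was 1. At an unadjusted p under 0.05, 160 genes were higher with HA (0.735% of those tested) and 100 lower (0.460%). These 260 genes are fewer than the 1088 that evenly spread p-values would give. DESeq2 and limma-trend also called 0 genes after adjustment. At an unadjusted p under 0.05, DESeq2 had 228 higher and 116 lower of 37729 genes tested, and limma-trend 175 higher and 83 lower of 21761. A p that misses the threshold does not show that the compounds act alike. For 14226 genes (65.4%) the 95% interval of the difference lay wholly within 2-fold in either direction, and for 7535 it did not. Among the 11442 genes with a mean of at least 10 CPM (the usual count measure scaled to library size), the share within 2-fold was 90.6%. Differences below are log2 values, HA minus PPA, with their standard error (SE).

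HA2 stood apart from the other libraries of its group. It differed from HA1 and HA3 by a median of 0.431 and 0.472 log2 units over the genes tested, whereas HA1 and HA3 differed from each other by 0.144. The PPA libraries differed from each other by 0.205. HA1 and HA3 lay 0.179 to 0.235 from the PPA libraries, so the distance between compounds overlapped the distance between the PPA replicates. HA2 lay 0.395 from PPA1 and 0.365 from PPA2, nearer to either than to the libraries of its own group. The HA libraries held 31.3 to 35.4 M estimated counts and the PPA libraries 18.7 to 29.7 M, which bounds the precision of every value below.

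**Figure D1:**
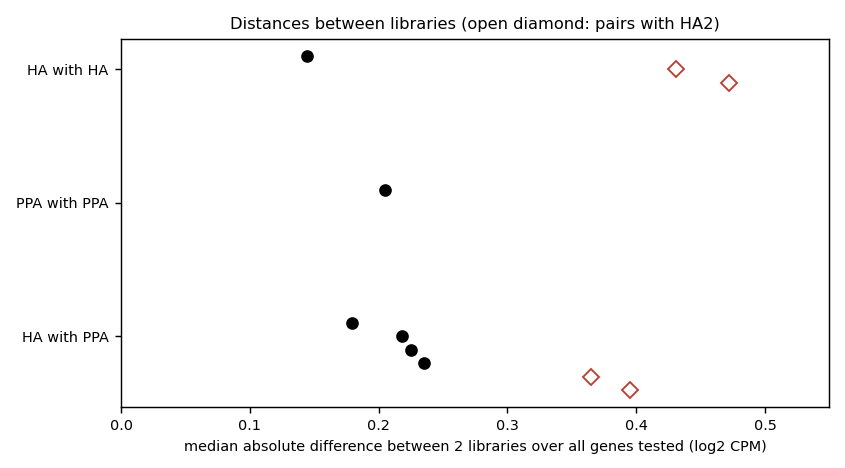
Median absolute difference in log2 CPM over all genes tested (x axis) for each pair of libraries, by kind of pair (y axis); open diamonds are pairs that include HA2. Pairs of HA1 or HA3 with a PPA library lie at 0.179 to 0.235, on both sides of the PPA pair at 0.205, and every pair with HA2 lies at 0.365 or above.

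HA2 also lacked most of the central nervous tissue transcripts seen in the other 4 libraries. Mobp, a myelin gene of oligodendrocytes, was at 507, 1.17 and 486 CPM in HA1, HA2 and HA3 and at 450 and 418 CPM in PPA1 and PPA2. Slc6a5, the glycine transporter of inhibitory neurons, was at 80.1, 0.498 and 86.7 CPM with HA and at 64.6 and 58.3 CPM with PPA. The mean of 19 central nervous system genes was 7.05, 2.28 and 7.08 log2 CPM in the HA libraries and 6.86 and 6.64 in the PPA libraries, and of the PBS libraries PBS1 was low as well, at 2.57. HA1, HA3 and both PPA libraries thus carried these transcripts in a bone sample, and HA2 lacked most of them. With all libraries 3 of the 19 genes had higher and 16 lower means with HA (median difference -0.22 log2). Without HA2, 18 had both HA libraries above both PPA libraries (94.7%, beside 24.9% of all genes tested). The median was then 0.28, and 0 reached an unadjusted p under 0.05. The list made up 0.740%, 0.128% and 0.704% of counts with HA and 0.634% and 0.564% with PPA, and muscle genes made up 5.49% to 9.02% of counts in the 5 libraries. Bone genes were well represented: Col1a1 ranged from 2040 to 4970 CPM. The hindlimb genes Tbx4 and Pitx1 were low in all 5 libraries. Tbx4 was at 0.821, 1.14 and 1.11 CPM with HA and at 1.95 and 0.94 CPM with PPA. Pitx1 was at 0.219, 0.41 and 0 CPM with HA and at 0.271 and 0.13 CPM with PPA. Which tissues each sample held beside tibia was not tested. The part of nervous tissue content in the differences described here was not tested, and values without HA2 are given beside most of those with it.

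Without HA2, 21612 genes were tested and again 0 passed (smallest adjusted p 0.895, edgeR). The balance of unadjusted p-values under 0.05 changed: 151 genes were higher with HA (0.699%) and 933 lower (4.32%). Together these are 1084 genes, beside 1081 for evenly spread p-values. With all libraries, 6.64% of genes had every HA library above both PPA libraries and 3.64% had every one below. Without HA2 these shares were 24.9% and 17.5%, and they are the background for the counts of non-overlapping genes below, as 0.699% and 4.32% are for counts at an unadjusted p under 0.05 without HA2. The HA minus PPA difference was above 0 for 55.4% of genes tested with all libraries and for 45.7% without HA2. These shares are the background for counts of higher and lower list members.

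Genes of red cell formation and of the cell cycle showed the split within the HA group clearly. The 13 erythroid genes averaged 8.20, 9.88 and 8.17 log2 CPM in HA1, HA2 and HA3 and 8.99 and 8.74 in PPA1 and PPA2, so that HA2 lay above and HA1 and HA3 below both PPA libraries. The 16 cell cycle genes averaged 5.29, 6.85 and 5.29 with HA and 5.94 and 5.86 with PPA, in the same order. With all libraries, 11 of 13 erythroid genes were higher and 2 lower with HA (median 0.13), 14 of 16 cell cycle genes were higher and 2 lower (median 0.12), and 0 members of either list reached an unadjusted p under 0.05. All genes tested had a median of 0.02. Without HA2, all 13 erythroid and all 16 cell cycle genes were lower with HA at an unadjusted p under 0.05, with medians of -0.73 and -0.65 beside -0.02 over all genes tested, and none passed adjustment. The members of each list were read from the same libraries and are not separate evidence. In PBS the erythroid mean spanned 8.63 to 9.20 and the cell cycle mean 5.73 to 6.26. In bulk RNA, fewer cells of a type and less RNA per cell cannot be told apart.

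Among erythroid genes, Klf1 encodes a master transcription factor of red cell precursors. It was at 38.8, 129 and 33.8 CPM with HA and at 61.9 and 48.2 CPM with PPA. The HA libraries lay on both sides of the PPA libraries, and the difference was 0.29 (SE 0.467) with all libraries and -0.63 without HA2 (unadjusted p 0.0173). Car1, carbonic anhydrase of red cells, is not in the erythroid list and was picked by its unadjusted p without HA2. It was at 56.2, 177 and 57.1 CPM with HA and at 110 and 89.7 CPM with PPA. Its difference was -0.04 (SE 0.41) with all libraries and -0.85 without HA2 (unadjusted p 0.000557). Alpha globin reads cannot be assigned with certainty to Hba-a1 or Hba-a2, which are near-identical. Their sum was 9810, 31300 and 9860 CPM with HA and 17800 and 13900 CPM with PPA.

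In the cell cycle group, Mki67, the proliferation marker, was at 323, 1060 and 327 CPM with HA and at 563 and 471 CPM with PPA. Cdk1, the kinase that drives entry into mitosis, was at 32.7, 108 and 32.7 CPM and at 52.5 and 45.6 CPM. Both genes were lower than in PPA in HA1 and HA3 and about 2-fold higher than in PPA in HA2. Cdk1 differed by 0.24 (SE 0.43) with all libraries and by -0.62 without HA2 (unadjusted p 0.00842). Aurka, a mitotic spindle kinase, went from 0.25 to -0.49 (unadjusted p 0.0306) in the same way. Car1, Dscc1, Hmgb2 and Lig1 were named as lower without HA2 by their unadjusted p there, and Dscc1 is not in the cell cycle list. Dscc1, of the clamp loader that links sister chromatid cohesion to replication, had the smallest unadjusted p of the genes that the naming rule gave without HA2. It was at 2.08, 6.70 and 1.90 CPM with HA and at 3.85 and 3.92 CPM with PPA, a difference of -1.01 without HA2 (unadjusted p 0.000539) and of -0.13 with it. Hmgb2, a chromatin protein of dividing cells, was at 88.1, 256 and 90.4 CPM against 146 and 142 CPM. Lig1, the replicative DNA ligase, was at 37.6, 92.4 and 37.4 CPM against 54.7 and 57.2 CPM. With HA2 their differences were 0.01 and 0.00, and without it -0.73 (unadjusted p 0.000661) and -0.62 (unadjusted p 0.000673).

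Since the cell cycle genes moved together between libraries, promoters of 2 of them are shown, with CCAAT boxes and the cell cycle homology element TTTGAA in capitals (either strand). Each runs from 250 bases before to 50 after the transcription start in RefSeq, build GRCm38.p6, 5′ to 3′ on the gene's strand. Hmgb2 is at chr8:57511593-57511892 (plus strand) and Cdk1 at chr10:69352863-69353162 (minus strand).
Hmgb2: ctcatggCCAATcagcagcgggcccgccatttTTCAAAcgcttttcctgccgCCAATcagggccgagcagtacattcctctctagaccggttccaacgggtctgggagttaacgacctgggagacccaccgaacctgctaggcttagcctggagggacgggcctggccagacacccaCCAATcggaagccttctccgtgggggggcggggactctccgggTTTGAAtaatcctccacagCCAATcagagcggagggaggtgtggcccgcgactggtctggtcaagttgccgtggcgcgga
Cdk1: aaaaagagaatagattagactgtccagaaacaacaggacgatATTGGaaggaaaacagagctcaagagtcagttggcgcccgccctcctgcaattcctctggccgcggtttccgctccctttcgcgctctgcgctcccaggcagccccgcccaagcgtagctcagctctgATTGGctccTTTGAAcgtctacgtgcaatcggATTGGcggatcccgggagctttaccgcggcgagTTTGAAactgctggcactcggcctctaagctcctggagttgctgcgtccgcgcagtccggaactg

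The Hmgb2 window holds 4 CCAAT boxes and 2 TTTGAA elements, and the Cdk1 window 3 and 2. Over the 14 cell cycle genes with a promoter in the RefSeq table, 12 (85.7%) held CCAAT and 7 held TTTGAA, beside 42.3% and 15.2% of the 13853 genes tested that have one. For an E2F motif, read as TTTCCCGC or TTTGGCGC, the shares were 7.14% (1 of 14) and 2.87%. For a GATA motif, read as AGATAA, they were 7.14% (1 of 14) and 8.86%. The 10 erythroid genes with a promoter held AGATAA in 3 (30.0%), CCAAT in 7 (70.0%), TTTGAA in 2 (20.0%) and the E2F motif in 0. CCAAT and TTTGAA were thus above their shares of all genes tested in both lists, though TTTGAA rested on 2 genes in the erythroid list. All motifs were searched on both strands, a gene with several starts counted once if any window matched, and the marked pair was picked after these shares were seen. A match is a description of letters and not of a bound site.

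Bone cell genes followed the same pattern with smaller differences. Osteoclast genes averaged 4.74, 5.38 and 4.67 log2 CPM with HA and 4.93 and 5.10 with PPA, osteoblast genes 6.06, 7.01 and 5.78 against 6.37 and 6.20, and osteocyte genes 3.04, 3.69 and 2.89 against 3.38 and 3.11. In each list HA2 lay above and the other HA libraries below both PPA libraries. With all libraries 0 of 15 osteoclast, 0 of 15 osteoblast and 0 of 10 osteocyte genes reached an unadjusted p under 0.05, and the medians were -0.11, 0.07 and 0.06. Without HA2 the medians were -0.42, -0.41 and -0.37, and 2 of 15, 5 of 15 and 4 of 10 genes reached an unadjusted p under 0.05, all lower with HA, beside 4.32% of all genes tested.

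Ctsk, the collagen-degrading protease of osteoclasts, was at 131, 251 and 114 CPM with HA and at 170 and 186 CPM with PPA. The difference was -0.11 (SE 0.32, 95% interval -0.80 to 0.59), and -0.58 without HA2 (unadjusted p 0.041). Acp5, tartrate-resistant acid phosphatase of the same cells, was at 206, 364 and 163 CPM with HA and at 249 and 286 CPM with PPA, with differences of -0.13 and, without HA2, -0.58 (unadjusted p 0.0536). Both osteoclast genes spanned a wider range within HA than between the PPA libraries. Tnfsf11 (RANKL), the cytokine that drives osteoclast formation, was at 1.12, 3.13 and 1.28 CPM with HA and at 1.68 and 2.17 CPM with PPA. Its decoy receptor Tnfrsf11b was at 6.57, 12.4 and 5.44 CPM against 7.38 and 5.97 CPM. The differences were -0.07 (SE 0.407) and 0.29 (SE 0.295), and without HA2 -0.74 (unadjusted p 0.025) and -0.18.

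For the bone-forming lineage, Col1a1, the main bone collagen chain, was at 2430, 4970 and 2040 CPM with HA and at 2710 and 2800 CPM with PPA (difference 0.19, SE 0.349). Alpl, the phosphatase needed for mineralization, was at 48.6, 77.9 and 40.5 CPM against 57.6 and 48.2 CPM (difference 0.07, SE 0.269). Without HA2 the differences were -0.34 and -0.29, and neither gene reached an unadjusted p under 0.05 with or without HA2. Runx2, the transcription factor of osteoblast fate, was at 21.2, 41.9 and 21.7 CPM against 28.6 and 31.7 CPM, and its difference without HA2 was -0.53 (unadjusted p 0.00738). The osteocalcin genes Bglap, Bglap2 and Bglap3 are near-identical and their reads cannot be split with certainty. Summed, they were at 245, 561 and 194 CPM with HA and at 305 and 246 CPM with PPA. Sost, the osteocyte inhibitor of Wnt signalling, was at 5.04, 14.5 and 4.06 CPM with HA and at 13.1 and 6.74 CPM with PPA. Its difference was -0.33 (SE 0.515), and -1.15 without HA2 (unadjusted p 0.0146), and the PPA libraries themselves differed about as much. Dmp1, Phex and Mepe, further osteocyte genes, had differences of -0.62, -0.67 and -0.75 without HA2 and of -0.06, -0.13 and 0.21 with it. Not all osteocyte genes went this way: without HA2, 7 of 10 were lower with HA and 3 higher, up to 0.52.

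**Figure D2:**
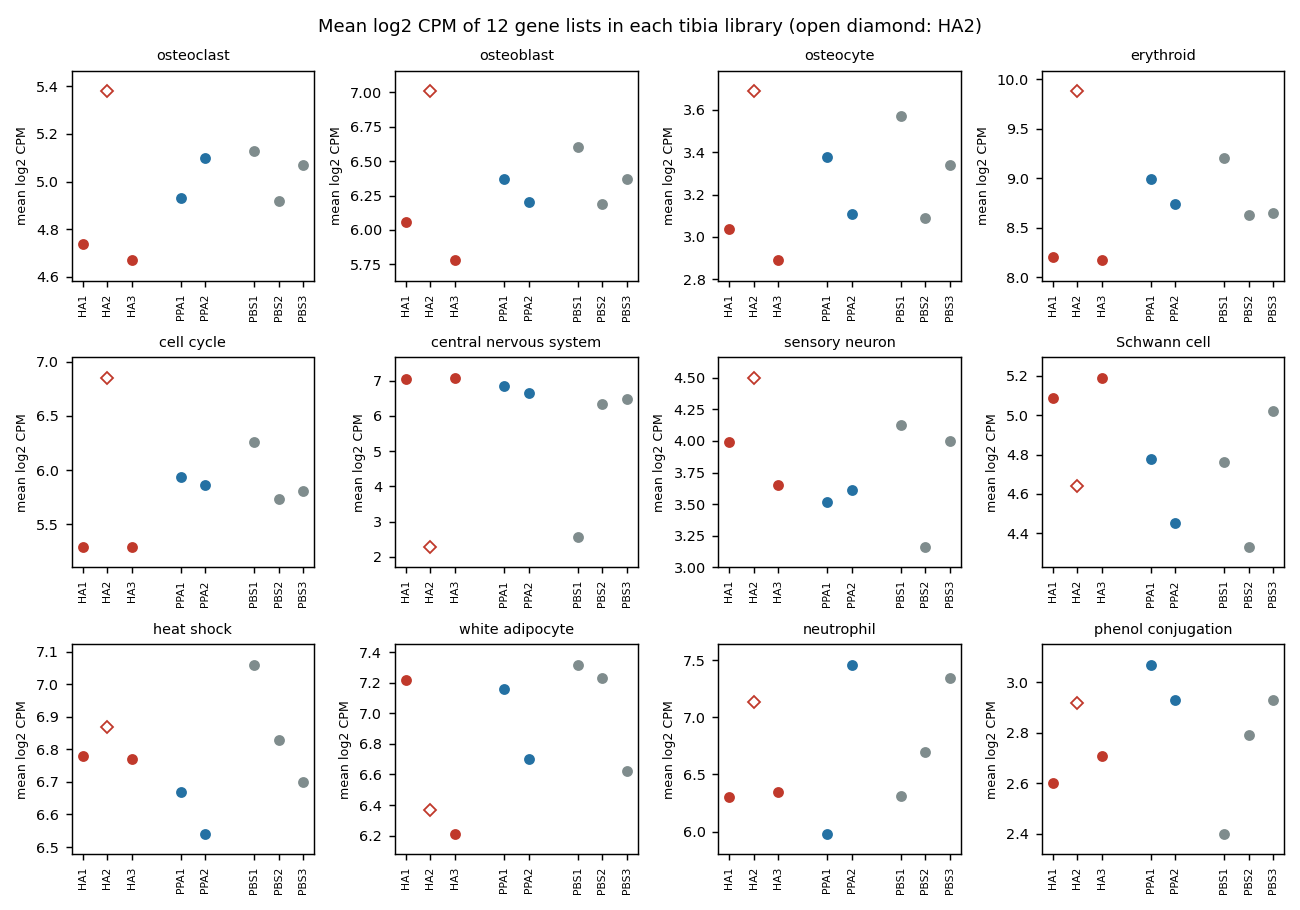
Mean log2 CPM of 12 gene lists (y axis, own scale per panel) in each HA, PPA and PBS library (x axis); each point is a library and the open diamond is HA2. In the osteoclast, osteoblast, osteocyte, erythroid and cell cycle panels HA2 lies above both PPA libraries and HA1 and HA3 below, for example 9.88 against 8.99 and 8.74 and against 8.20 and 8.17 for erythroid genes.

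HA2 was on the opposite side of both PPA libraries from HA1 and HA3 in 12 of the 45 lists described. The HA range exceeded the PPA range in 37 of the 45, and exceeded 1 log2 unit in 9. Only 3 lists had all 3 HA means on one side of both PPA means: sensory neuron and heat shock genes, which were higher with HA, and phenol conjugation genes, which were lower. Without HA2, 6 lists had both HA means above and 10 had both below the PPA means.

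**Figure D3:**
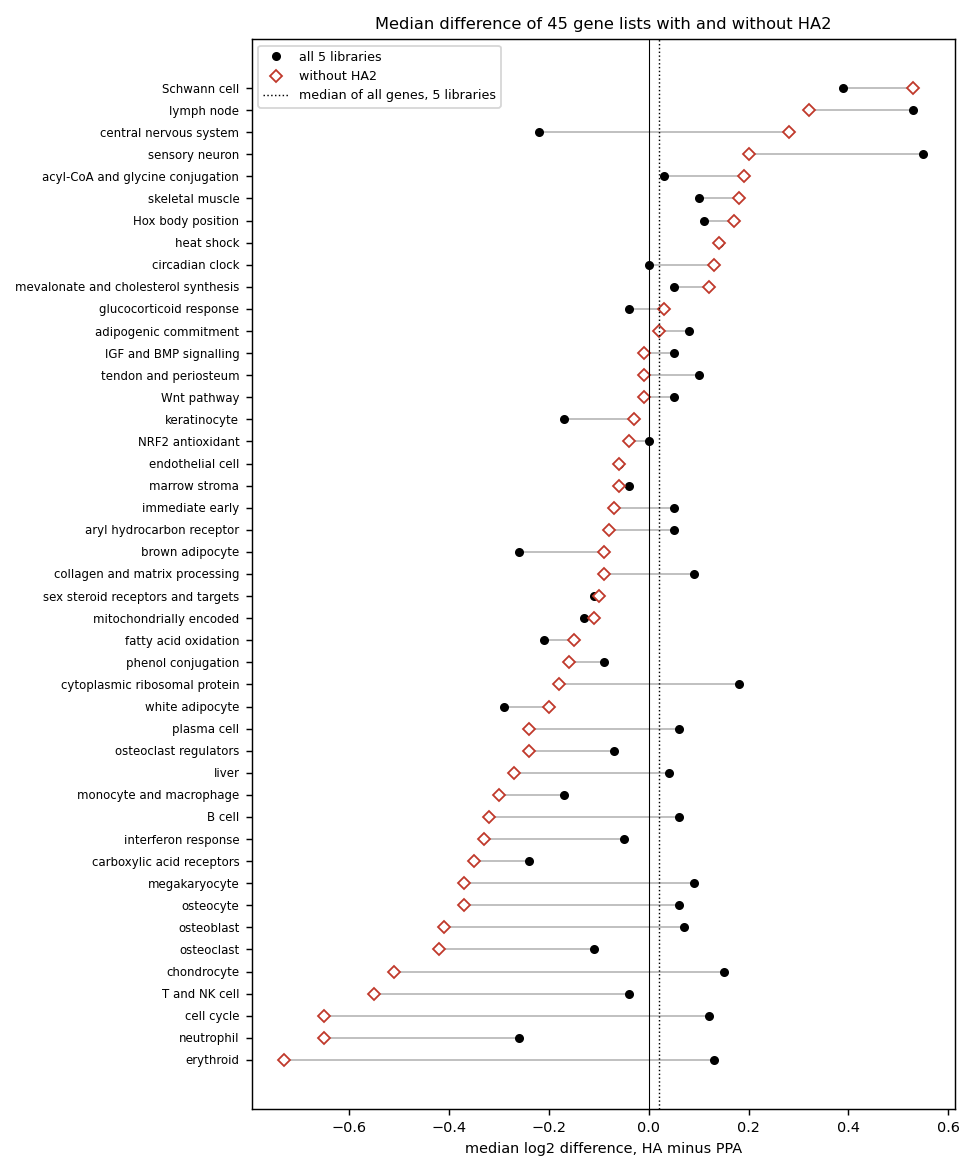
Median log2 difference, HA minus PPA (x axis), of each of 45 gene lists (y axis) with all 5 libraries (filled circles) and without HA2 (open diamonds); the dotted line is the median of all genes tested, 0.02. The erythroid median goes from 0.13 to -0.73 and the cell cycle median from 0.12 to -0.65, while the heat shock median is 0.14 in both.

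Genes of sensory neurons, the cells that carry pain and touch, averaged 3.99, 4.50 and 3.65 log2 CPM with HA and 3.52 and 3.61 with PPA. All 11 genes had higher means with HA (median 0.55), 6 of them without overlap, beside 55.4% and 6.64% of all genes. Pou4f1, a transcription factor of these neurons, was at 11.6, 18.3 and 9.67 CPM with HA and at 6.78 and 8.43 CPM with PPA. Its difference was 0.79 (SE 0.354, unadjusted p 0.048), and 0.44 without HA2 (unadjusted p 0.224). Scn10a, a sodium channel of pain-sensing neurons, was at 39.5, 58.3 and 39.4 CPM against 23.3 and 31.4 CPM. Its difference of 0.74 (SE 0.425) did not reach an unadjusted p of 0.05 (0.48 without HA2). Without HA2, 10 of 11 were higher (median 0.20) and 6 did not overlap, beside 45.7% and 24.9% of all genes. PBS libraries spanned 3.16 to 4.13, wider than the gap between compounds. Schwann cell genes, the peripheral myelin group, were higher in 9 of 9 (median 0.39; 0.53 without HA2), though the list means of 5.09, 4.64 and 5.19 with HA overlapped the 4.78 and 4.45 of PPA. Dhh, a hedgehog ligand made by Schwann cells, was at 8.62, 9.04 and 9.74 CPM with HA and at 5.05 and 6.13 CPM with PPA. Its libraries did not overlap, and the difference was 0.71 (SE 0.286, unadjusted p 0.0319), 0.67 without HA2. In PBS it was at 9.78, 5.60 and 8.48 CPM, a range that covers 4 of the 5 HA and PPA libraries.

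Heat shock genes encode chaperones that refold damaged protein. They averaged 6.78, 6.87 and 6.77 log2 CPM with HA and 6.67 and 6.54 with PPA, and 11 of 12 had higher means with HA (median 0.14). Without HA2, 8 were higher and 4 lower (median again 0.14). Hspb1, a small chaperone of muscle and vessels, was at 58.1, 56.8 and 52.4 CPM with HA and at 42.5 and 40.7 CPM with PPA. The difference was 0.42 (SE 0.182, unadjusted p 0.0403), and 0.37 without HA2 (unadjusted p 0.0777). Hspa1a and Hspa1b, near-identical genes of inducible HSP70, summed to 42.6, 42.1 and 41.7 CPM with HA and to 33.2 and 26.6 CPM with PPA. The HA libraries were close to each other in this sum and above both PPA libraries. PBS libraries reached 63.4, 36.6 and 38.5 CPM in the same sum and 77.2, 71.4 and 50.5 CPM for Hspb1, so the vehicle libraries did not lie with PPA.

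Phenol conjugation genes bear on the ring hydroxyl that distinguishes the compounds. The 8 genes averaged 2.60, 2.92 and 2.71 log2 CPM with HA and 3.07 and 2.93 with PPA, with HA2 0.01 below PPA2, and 3 had higher and 5 lower means with HA (median -0.09; also 3 and 5 without HA2, median -0.16). Ugt1a6a, which attaches glucuronic acid to phenols, was at 6.81, 7.61 and 4.39 CPM with HA and at 3.31 and 4.28 CPM with PPA (difference 0.72, SE 0.264, unadjusted p 0.0198), and without HA2 differed by 0.51 (unadjusted p 0.0786). Ugt1a6b went the other way, at 1.26, 1.40 and 1.21 CPM against 2.55 and 2.07 CPM (difference -0.83, SE 0.437, and -0.94 without HA2). The Ugt1a genes share all but their first exon, and how reads of the shared exons were divided is not given in the sources used here. Their sum over 5 genes was 10.4, 11.6 and 8.46 CPM with HA and 9.33 and 13.1 CPM with PPA, and overlapped. Sult1a1, the main sulfotransferase of simple phenols, was at 27.9, 24.5 and 23.8 CPM against 30.0 and 24.3 CPM. Its difference was -0.09 (SE 0.134), with a 95% interval of -0.38 to 0.20, and -0.11 without HA2.

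Genes of acyl-CoA and glycine conjugation and carboxylic acid receptor genes bear on the acid group of the molecules. Of 9 genes tested in the conjugation list, 1 was lower and 0 higher with HA at an unadjusted p under 0.05. Over all genes tested these shares were 0.460% and 0.735%. Without HA2, 2 of the 9 were lower and 0 higher, beside 4.32% and 0.699% of all genes. Glyat, the glycine conjugating enzyme that makes hippuric acid, was below 1 CPM in every library of both groups. Slc16a7, a monocarboxylate transporter, was at 10.3, 8.78 and 7.18 CPM with HA and at 11.7 and 11.9 CPM with PPA. All HA libraries were below both PPA libraries, and the difference was -0.43 (SE 0.174, unadjusted p 0.0269), -0.48 without HA2. Hcar2, a receptor for hydroxycarboxylic acids that phenolic acids can also engage, was at 3.23, 2.08 and 1.41 CPM with HA and at 3.42 and 2.40 CPM with PPA. Its difference of -0.37 (SE 0.403) had a 95% interval of -1.24 to 0.51, which does not show that the compounds act alike on it, and was -0.35 without HA2. Across 8 carboxylic acid receptor genes 3 had higher and 5 lower means with HA, and 0 reached an unadjusted p under 0.05. Without HA2, 1 was higher and 7 lower (median -0.35), and 1 reached an unadjusted p under 0.05. It is Ffar2, a short-chain fatty acid receptor named after its values were seen, at -0.49 (unadjusted p 0.0341).

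Genes that respond to aromatic and oxidizing compounds lay on both sides of 0. Cyp1b1, induced through the aryl hydrocarbon receptor, was at 16.4, 19.3 and 15.5 CPM with HA and at 15.6 and 21.2 CPM with PPA (difference -0.11, 95% interval -0.51 to 0.29). Nqo1, a quinone reductase induced through NRF2, was at 19.4, 23.5 and 23.9 CPM against 21.1 and 19.1 CPM (difference 0.15, 95% interval -0.20 to 0.50). The libraries overlapped for both genes and neither interval reached 2-fold. Esr1, the oestrogen receptor, was at 22.5, 18.3 and 24.0 CPM with HA and at 23.4 and 25.8 CPM with PPA, with a difference of -0.19 (95% interval -0.56 to 0.17). Without HA2 the differences of Cyp1b1, Nqo1 and Esr1 were -0.25, 0.07 and -0.13. Of 17 NRF2 genes 9 had higher and 8 lower means with HA (median 0.00), and of 11 aryl hydrocarbon receptor genes 7 and 4 (median 0.05). Without HA2 the counts were 7 higher and 10 lower (median -0.04) and 4 higher and 7 lower (median -0.08). The latter list includes Ugt1a6a and Ugt1a6b, whose intervals of 0.15 to 1.30 and of -1.79 to 0.12 were wider than those of Cyp1b1 and Nqo1.

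Fat genes had mostly lower means with HA, inside a wide spread. White adipocyte genes averaged 7.22, 6.37 and 6.21 log2 CPM with HA and 7.16 and 6.70 with PPA. HA1 was thus close to PPA1, while HA2 and HA3 lay below both PPA libraries. Of 20 genes 18 had lower means with HA (median -0.29), and 0 reached an unadjusted p under 0.05. Without HA2 the count was again 18 of 20 (median -0.20), with 0 at an unadjusted p under 0.05. Pparg, the master regulator of fat cells, was at 22.3, 13.7 and 9.77 CPM against 25.2 and 19.9 CPM (difference -0.56, SE 0.327), and Adipoq, the hormone adiponectin, at 119, 80.9 and 74.4 CPM against 119 and 95.8 CPM (difference -0.23, SE 0.317). Lep, the satiety hormone leptin, was with Cfd 1 of the 2 genes with a higher mean, at 12.8, 7.35 and 16.3 CPM against 10.8 and 6.94 CPM (difference 0.46, SE 0.39). Without HA2 the differences of Pparg, Adipoq and Lep were -0.52, -0.19 and 0.68. In the brown adipocyte list 11 of 12 genes had lower means with HA (median -0.26), and 10 of 12 without HA2 (median -0.09). Ucp1, the heat-producing uncoupling protein, was at 141, 24.2 and 12.5 CPM with HA and at 177 and 70.5 CPM with PPA, a difference of -1.06, and of -0.71 without HA2. Dio2, the deiodinase that makes active thyroid hormone, was at 12.9, 11.2 and 11 CPM with HA and at 17.5 and 21.7 CPM with PPA. Dio2 did not overlap between groups, unlike Ucp1, and differed by -0.74 (SE 0.242, unadjusted p 0.00919), -0.75 without HA2. PBS libraries were at 18.6, 16.7 and 14.8 CPM for Dio2, all above the HA libraries. The gene lies at chr12:90724552-90738438 (minus strand) in mm10.

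Neutrophil and B cell genes, unlike the erythroid genes, were spread more between the PPA libraries than within HA. Neutrophil genes averaged 5.98 and 7.46 log2 CPM in PPA1 and PPA2 and 6.30, 7.13 and 6.35 in the HA libraries. B cell genes averaged 3.31 and 4.37 in PPA1 and PPA2 and 3.56, 4.36 and 3.71 with HA. PPA1 was thus the lowest and PPA2 the highest of the 5 libraries in both lists, and these were the lists with a PPA range above 1 log2 unit. Rag1, the recombinase of B cell precursors, was at 8.19 and 34.1 CPM with PPA and at 11.6, 15.2 and 14 CPM with HA. Of 15 neutrophil genes 13 had lower means with HA (median -0.26), and of 14 B cell genes 10 had higher means (median 0.06), with 0 of either at an unadjusted p under 0.05. Without HA2 all 15 neutrophil genes (median -0.65) and all 14 B cell genes (median -0.32) had lower means with HA, so the B cell direction turned, again with 0 at an unadjusted p under 0.05. With only 2 PPA libraries such differences between them set wide intervals, as for Rag1 (difference -0.65, 95% interval -1.89 to 0.59, and -0.80 without HA2).

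The 8 genes per direction with the smallest unadjusted p among those without overlap and with at least 2 CPM in the higher group did not pass adjustment either. The higher group with HA began with Tle1, a Groucho family co-repressor, at 25.3, 22.7 and 24.2 CPM with HA and 18.1 and 19.6 CPM with PPA (difference 0.35, SE 0.112, unadjusted p 0.00923). Its difference without HA2 was also 0.35. In GENCODE M21 on mm10, Tle1 lies at chr4:72117142-72200919 (minus strand), Nr4a3 at chr4:48045153-48086447 (plus strand) and Tppp3 at chr8:105467493-105471526 (minus strand). Nr4a3, an orphan nuclear receptor of the immediate early class, was at 4.02, 6.97 and 5.61 CPM against 1.95 and 3.14 CPM (difference 1.10, SE 0.364, unadjusted p 0.0119), and without HA2 differed by 0.85 (unadjusted p 0.0524). Its relatives Nr4a1 and Nr4a2 had differences of -0.09 and -0.22, so Nr4a3 stood apart from them in sign. Wnt2b, a Wnt ligand, was at 3.48, 2.63 and 4.92 CPM against 2.06 and 2.40 CPM (difference 0.71, SE 0.26), and 0.86 without HA2 (unadjusted p 0.0037). Tppp3, a tubulin-binding protein found in tendon sheath cells, was at 162, 166 and 164 CPM against 134 and 122 CPM (difference 0.36, SE 0.125, unadjusted p 0.0141), and without HA2 differed by 0.31 (unadjusted p 0.034). The HA libraries were within a few CPM of each other for Tppp3, and the PPA libraries below them. Pagr1a (0.38), a partner of a histone methyltransferase complex, Banp (0.49), a CpG-binding nuclear protein, Taf1a (0.40), of the RNA polymerase I machinery, and Mrps26 (0.34), of the mitochondrial ribosome, completed the group with unadjusted p from 0.0103 to 0.0176. Without HA2, Banp (unadjusted p 0.0551) and Mrps26 (unadjusted p 0.0553) no longer reached 0.05. Pagr1a shares exons with Pagr1b in the annotation.

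Of the 8 genes named as lower with HA, Bc1 had the widest difference. Bc1, a noncoding RNA best known from neuronal dendrites, was at 43.6, 7.08 and 102 CPM with HA, at 504 and 136 CPM with PPA and at 10.7, 34.3 and 36.8 CPM with PBS. Both PPA libraries lay above all HA and PBS libraries, yet differed from each other severalfold, and the HA minus PPA difference was -2.65 (SE 0.843, unadjusted p 0.00865), and -2.16 without HA2 (unadjusted p 0.0114). Ccdc152 was at 1.12, 1.32 and 1.38 CPM against 3.09 and 1.75 CPM (difference -0.92, SE 0.282). It lies on the opposite strand over exons of Selenop, and whether counting used strand is not given in the sources used here, so its reads are uncertain. The same limit holds for Banp, Mrps26, Kcnj15, Cetn4, Gcfc2, Dio2, Dscc1, Lig1, Acp5 and Sult1a1, whose exons also overlap an opposite-strand gene. Taf9, a TFIID subunit that shares exons with Ak6, was at 7.14, 8.31 and 4.69 CPM against 13.2 and 9.92 CPM (difference -0.78, SE 0.307). Zfp119b (-0.53), a zinc finger gene, Kcnj15 (-0.55), an inward rectifier potassium channel, Cetn4 (-0.51), a centrin, and Gcfc2 (-0.44), linked to splicing, followed with unadjusted p from 0.0237 to 0.0256. Without HA2, Ccdc152 differed by -0.98, Taf9 by -1, Zfp119b by -0.57, Kcnj15 by -0.58, Cetn4 by -0.49 and Gcfc2 by -0.57. Without HA2, Vwa1, a matrix protein of cartilage and nerve, and Zfp449 were 2 of the 4 genes named as higher, with Wnt2b and Tle1, at 40.7 and 38.6 against 28.1 and 25.7 CPM and at 7.39 and 6.26 against 4.02 and 4.70 CPM. Their differences were 0.52 (unadjusted p 0.000867) and 0.60 (unadjusted p 0.00694), and with HA2 included 0.39 and 0.51.

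**Figure D4:**
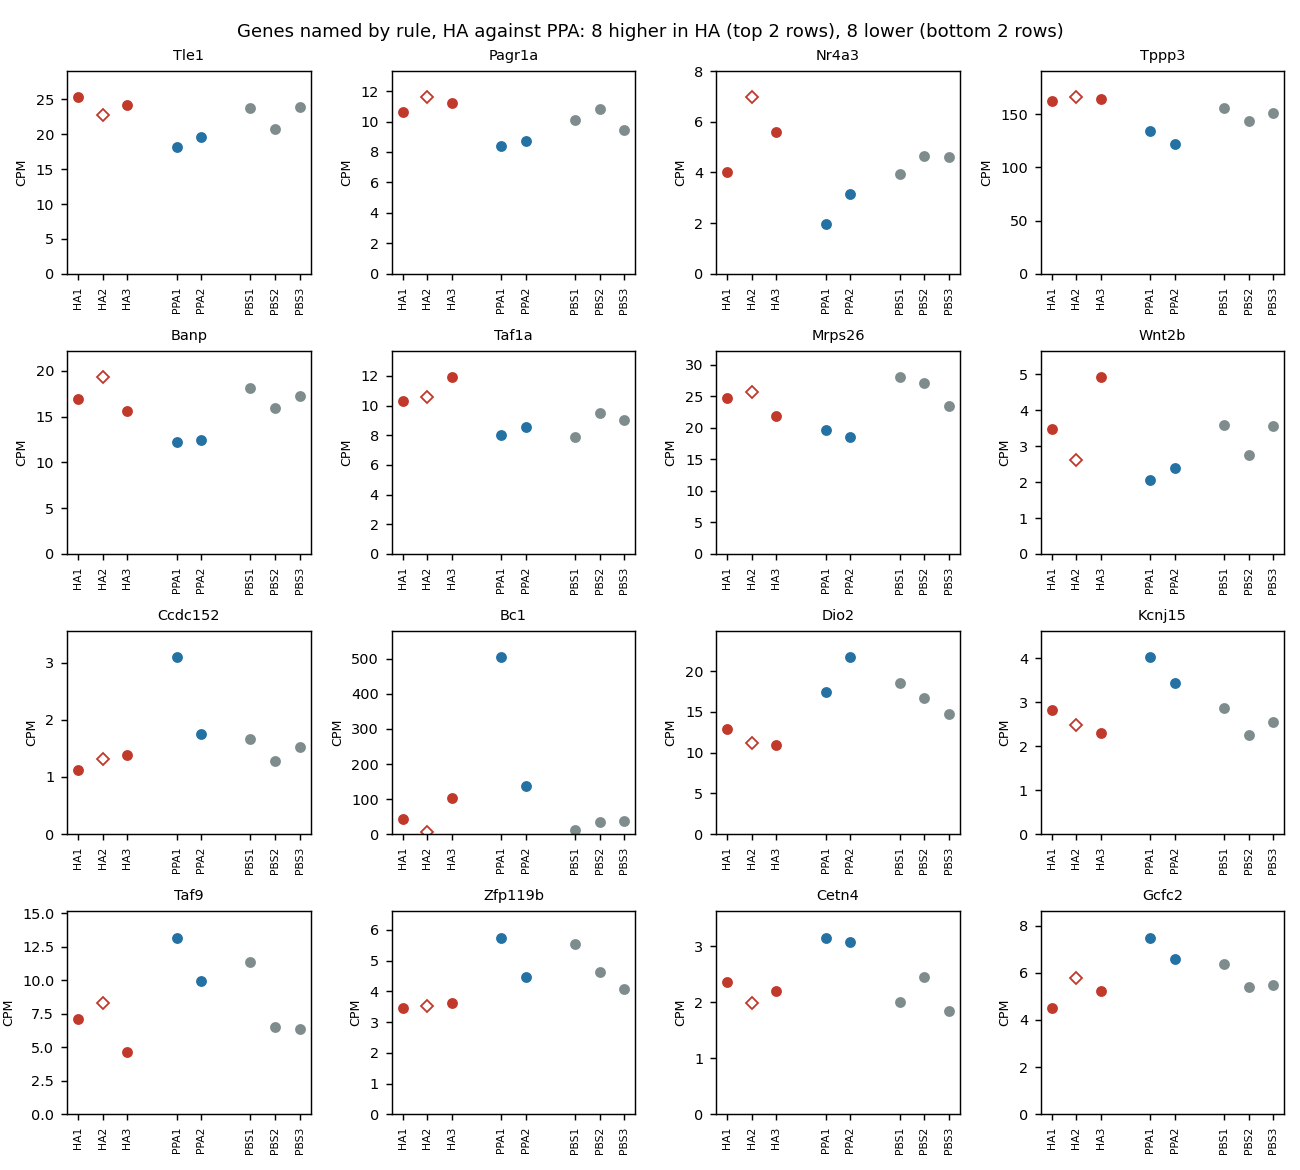
CPM (y axis, from 0, own scale per panel) of the 16 genes named by rule (8 per direction with the smallest unadjusted p among those without overlap and with at least 2 CPM) in each HA, PPA and PBS library (x axis); each point is a library and the open diamond is HA2. Nr4a3 lies at 4.02 to 6.97 with HA and at 1.95 and 3.14 with PPA, and Bc1 at 504 in PPA1 and 136 in PPA2.

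Mmp12, the macrophage elastase, fell outside the naming rule because it was below 2 CPM on average in both groups, and was picked after its values were seen. It was at 1.48, 0.937 and 2.10 CPM with HA, at 0.109 and 0.421 CPM with PPA and at 0.743, 0.609 and 0.959 CPM with PBS. The HA and PPA libraries did not overlap, and the difference was 2.39 (SE 0.545, unadjusted p 0.000866), 2.58 without HA2. Exons of Mmp12 overlap those of Mmp1b on the opposite strand, so its reads are uncertain, as for Ccdc152. The gene lies at chr9:7344381-7369499 (plus strand) in mm10. It did not pass adjustment over all genes (adjusted p 1, edgeR).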

How the data were processed

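Poly(A) RNA of tibia was read as 75-nt single reads from a stranded kit, per the labels' protocols. STAR 2.7.8a, Bowtie2 2.2.5, CASAVA 1.8.1, Partek and the build mm10 are named, without roles, per the submitters' processing notes. The sources used here give no counting tool, annotation or use of strand. The authors deposited a table of estimated counts per gene symbol (55291 symbols, 20.7% of values not whole within 0.01), which were rounded. The deposited TMM table was not used.

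Genes were filtered with filterByExpr and scaled by TMM, and edgeR 4.0.16 in R 4.3.3 fitted a quasi-likelihood model to all 14 libraries with 1 mean per group (9 residual degrees of freedom). The HA minus PPA contrast was two-sided and Benjamini-Hochberg adjusted over all genes at 0.05. CPM values are TMM-scaled; 95% intervals are Wald intervals. List means are on log2 CPM with a prior count of 2. DESeq2 1.42.0, limma 3.58.1, RLE scaling, no filter, fewer libraries and a replicate block were alternatives. Scripts were tested on simulated data.

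Members and the 45 lists (643 symbols, 611 tested) were chosen with earlier results of these data known. Named were the 8 genes per direction with the smallest unadjusted p that did not overlap and reached 2 CPM, 4 per direction without HA2, up to 2 members per list described and 19 fixed genes; some of these are given only as part of their list, and 1 list member is not reported here. GENCODE M21 (mm10) held 96.4% of the symbols.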

Additional observations from a re-analysis of the deposited data

Results flagged for a closer look

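Tppp3 was the named gene for which all HA libraries lay above and both PPA libraries below every PBS library. It was at 162, 166 and 164 CPM with HA, at 156, 144 and 151 CPM with PBS and at 134 and 122 CPM with PPA, and the HA minus PPA difference was 0.36 on the log2 scale. Whether the differences of the compounds from PBS themselves differ was not tested beyond the HA minus PPA contrast, in which Tppp3 did not pass adjustment. Of 21761 genes, 15 (0.0689%) showed this order and 3 (0.0138%) the opposite one. Both differences use the same PBS libraries.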

How the results depend on the processing

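No gene passed an adjusted p of 0.05 under any of the alternatives, with or without HA2 (edgeR, DESeq2 and limma-trend), while counts at an unadjusted p under 0.05 moved. Of genes higher and lower with HA, there were 242 and 274 without the low-count filter (more genes tested), and 97 and 41 with only the 5 libraries in the fit. Leaving out 1 library gave 151 to 238 higher and 112 to 933 lower, against 160 and 100 with all, and the lower count was 272 without HA1, 190 without PPA1 and 172 without PPA2. Without HA2 and PBS1, 980 were lower. Starting from the set without HA2, 151 were higher and 933 lower of 21612. DESeq2 gave 246 higher and 731 lower (37417 genes tested), and RLE scaling 244 and 690. With only the 4 libraries, 1043 were higher and 1251 lower of 20391. Leaving out 1 more library gave 85 to 260 higher and 422 to 911 lower, with 85 and 422 without HA3 and 260 higher without PPA2. The share of genes with an interval within 2-fold was 38.2% with DESeq2 (37729 genes tested) and 38.5% without the filter (37749), beside 65.4% of 21761. It was 50.8% to 63.3% with 1 library left out. The cause of these shifts was not tested where it is not stated.

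Without HA2, 16 of 115 named genes changed sign, 5 of them with an unadjusted p under 0.05 there: Cdk1 to -0.62, Klf1 to -0.63, Aurka to -0.49, Bglap to -0.35 and Hba-a1 to -0.62. Without HA3 these 5 genes were at 0.52, 0.61, 0.52, 0.55 and 0.54, the upper end of the values with 1 library left out. Without HA2 and PBS1, Cdk1 was at -0.61, Klf1 at -0.63, Aurka at -0.48 and Bglap at -0.34. Of the 16 genes named by rule with all libraries, 13 stayed under an unadjusted p of 0.05 without HA2, 3 did so without PPA1 and 11 without PPA2, and without PPA1 or PPA2 the lone PPA library is assumed to vary like the other groups.

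HA and PPA share only replicate numbers, which the labels do not tie to animals or batches. With the replicate number as a block 0 genes passed, and 158 were higher and 80 lower at an unadjusted p under 0.05 (102 and 625 without HA2), with 63.6% of intervals within 2-fold. Deviations of same-numbered libraries correlated at 0.106 and 0.0651. The deviations of PPA1 and PPA2 mirror each other around their mean, so HA1 with PPA2 and HA2 with PPA1 gave -0.106 and -0.0651. Whether the libraries are paired cannot be read from these values. For 7535 genes the interval reached past 2-fold, so that a difference of that size is within it.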
